A study of Mus musculus with 12 samples.

Results

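Cd52 and 1 of 2 Ly6d probe sets gave weaker signals in MED23 null than in control thymocytes, after αCD3 and after mock treatment. This held on every array, and such a separation was found for 8.61% of all probe sets tested after αCD3 and 8.44% after mock treatment. The other Ly6d probe set, near the bottom of the scale, did not follow it. Both genes encode small surface antigens held in the membrane by a lipid tail. They belong to a set of 7 genes for GPI-anchored lymphocyte antigens (Cd52, Ly6d, Ly6a, Ly6e, Ly6c1, Thy1 and Cd24a). Every probe set whose only gene symbol in the platform annotation is 1 of these was taken, which gave 7 probe sets of 5 genes, out of 12488 probe sets and 8252 genes with a single symbol. Cd52, Thy1 and Cd24a have 1 probe set each, and Ly6d and Ly6e have 2 each. Ly6a has none under its symbol in the annotation used here, and the 1 probe set of Ly6c1 is shared with Ly6c2 and was left out. The set was selected on measured values of these arrays, because the study lists Cd52 and Ly6d among genes with lower mock signals in MED23 null cells. Differences on the mock arrays are therefore given as a description with no test. That listing did not use the αCD3 arrays, but they come from the same 6 mice and are not independent of it. The members were also chosen with earlier results of these data known.

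A GPI anchor is a glycolipid that is built in the endoplasmic reticulum and joined to the end of a protein in place of a membrane-spanning segment. Proteins held in this way gather with signalling molecules in ordered patches of the membrane, and several serve as markers of T-cell development. CD52 is the short, heavily glycosylated CAMPATH-1 antigen of mature lymphocytes. LY6D and LY6E belong to the LY6/uPAR family of proteins with a compact, disulfide-bonded fold, THY1 is the classical marker of mouse T-cells, and CD24A (heat stable antigen) is carried by immature thymocytes and lost as they mature.

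Total thymocytes were taken from 2 Med23flox/flox;Lck-Cre mice (MED23 null), 2 Med23+/+;Lck-Cre mice (Lck-Cre) and 2 Med23flox/flox mice without Cre. The last 2 genotypes are pooled as controls where stated, and all mice were females 6 to 7 weeks old of the C57Bl/6 x 129Sv (F1) background. After a rest of 4 h, the thymocytes of a mouse were placed for 3 h in wells coated with an antibody to CD3 (αCD3), a trigger of the T-cell receptor, or in uncoated wells (mock). Every mouse thus supplied an αCD3 array and a mock array, 12 in all. MED23 is a subunit of Mediator, the complex that links transcription factors to RNA polymerase II, and the Lck-Cre transgene deletes its gene during thymocyte development to a degree that differs between mice. The cells were not sorted, and in such bulk RNA fewer cells of a type and less RNA per cell cannot be told apart.

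The Med23 probe set averaged 246 ± 9.27 in MED23 null cells (SD, n = 2) and 401 ± 75.3 in control cells (SD, n = 4) after αCD3, and 238 ± 43.2 in MED23 null cells and 365 ± 56.8 in control cells after mock treatment, with both null mice below all 4 controls each time. Whether this probe set lies in the deleted exons is not given in the sources used here. Thymocyte markers were high on every array, with Rag1 at 21097 to 31890 and Cd8b1 at 15426 to 23326. Summed markers of thymocyte stages and of some other cells differed between the genotypes. The sum of 7 of 8 mature single positive markers was 3703 to 3769 in MED23 null cells and 5011 to 6526 in control cells after αCD3, and 3918 to 4190 in MED23 null cells and 5681 to 9285 in control cells after mock treatment. The sum of 9 of 10 T lineage markers was also lower, at 91226 to 91335 in MED23 null cells and 97605 to 100886 in control cells after αCD3. After mock treatment the T lineage sum was 87658 to 94243 in MED23 null cells and 107512 to 111558 in control cells. Sums were higher in MED23 null cells for NK markers, which Gzma leads (3602 to 4501, against 1550 to 1809 in control cells, after αCD3), and for B cell markers, which Ighm leads (8747 to 9004, against 6679 to 8145). Both sums were also separate after mock treatment. The erythroid sum was 38275 and 15740 in the MED23 null mice, against 6178 to 15397 in control mice, after αCD3, so that 1 null mouse lay just above the controls. After mock treatment it was 37175 and 14798 in the MED23 null mice, against 6299 to 16704 in control mice, and overlapped. The NK marker Ncr1 and the B cell marker Cd22 stayed under 100 on every array, as did 3 of 6 epithelial markers, and the sums of 8 myeloid markers overlapped between the genotypes (3088 to 3692, against 2245 to 3674). The αCD3 array of Med23flox/flox replicate 1 stood apart, with a mean correlation of 0.905 with the other arrays, against 0.937 to 0.945 for the remaining 11.

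Cd52 is described first. After αCD3, the Cd52 probe set 104606_at read 2014 and 1784 in the MED23 null mice, 4198 and 4480 in the Lck-Cre mice, and 3556 and 3718 in the Med23flox/flox mice. After mock treatment it read 1502 and 1673 in the MED23 null mice, 4077 and 3917 in the Lck-Cre mice, and 3947 and 3314 in the Med23flox/flox mice. The genotypes did not overlap, since the 4 null arrays were the lowest of the 12. The means were 1899 ± 162 in MED23 null cells (SD, n = 2) and 3988 ± 426 in control cells (SD, n = 4) after αCD3, and 1588 ± 121 in MED23 null cells and 3814 ± 340 in control cells after mock treatment. The null mean was thus 0.476 of the control mean after αCD3 and 0.416 of it after mock treatment. The control array nearest to the nulls was still 1.77 times the higher null array after αCD3, and 1.98 times after mock treatment. Ordered by mean, the conditions ran from Lck-Cre αCD3 (4339) through Lck-Cre mock (3997), Med23flox/flox αCD3 (3637), Med23flox/flox mock (3631) and MED23 null αCD3 (1899) to MED23 null mock (1588). The 2 Med23flox/flox conditions overlapped in this order, whereas each of the other neighbours was separated in its 2 arrays.

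Ly6d showed the wider gap and the larger spread between mice. In B cell development LY6D is known as a marker of progenitors that have begun B-lineage specification, and it was first described as the thymocyte B-cell antigen, ThB. After αCD3, the Ly6d probe set 160553_at read 761 and 351 in the MED23 null mice, 4367 and 2525 in the Lck-Cre mice, and 5631 and 2975 in the Med23flox/flox mice. After mock treatment it read 884 and 327 in the MED23 null mice, 3327 and 1966 in the Lck-Cre mice, and 4837 and 2031 in the Med23flox/flox mice. The 4 null arrays were again the lowest, although the 2 mice of each genotype were far apart. The mice of a genotype differed by 2.17 times in MED23 null, 1.73 times in Lck-Cre and 1.89 times in Med23flox/flox cells after αCD3. After mock treatment they differed by 2.70, 1.69 and 2.38 times in the same order of genotypes. The mouse with more Ly6d was replicate 1 under both treatments in all 3 genotypes. Whether the replicate number stands for a shared batch is not given in the sources used here, and its part in this spread was not tested. For Cd52 the mice of a genotype never differed by more than 1.19 times, and the higher mouse was never the same under both treatments.

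The means of Ly6d were 556 ± 290 in MED23 null cells (SD, n = 2) and 3874 ± 1410 in control cells (SD, n = 4) after αCD3, and 605 ± 394 in MED23 null cells and 3040 ± 1352 in control cells after mock treatment. The null mean was 0.143 of the control mean after αCD3 and 0.199 of it after mock treatment. The lowest control array was 3.32 times the higher null array after αCD3 and 2.22 times after mock treatment. The order of the conditions was Med23flox/flox αCD3 (4303), Lck-Cre αCD3 (3446), Med23flox/flox mock (3434), Lck-Cre mock (2646), MED23 null mock (605) and MED23 null αCD3 (556). Neighbours in this order overlapped in their single arrays, with the exception of Lck-Cre mock and MED23 null mock. The plot of signals by array shows this gap beside the 3 other genes.

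**Figure D1:**
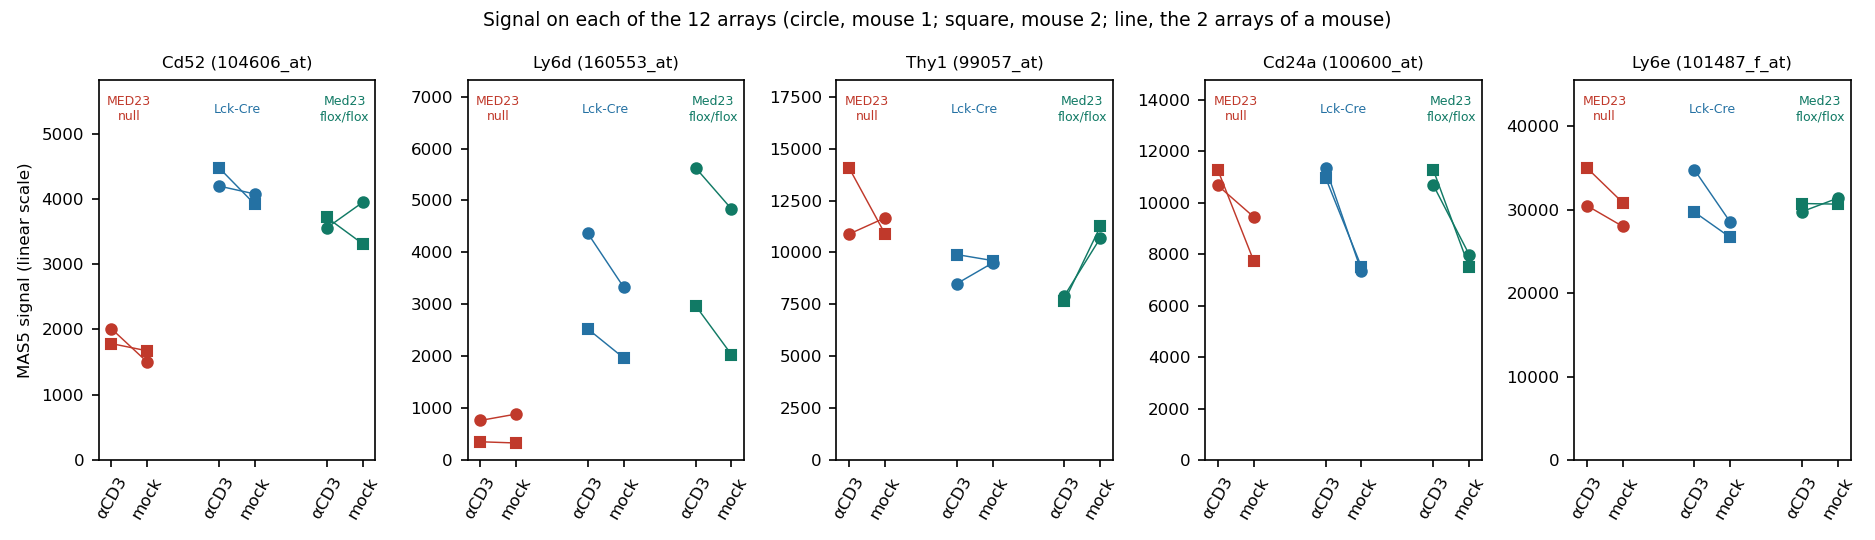
MAS5 signal (linear scale) of 1 probe set each of Cd52, Ly6d, Thy1, Cd24a and Ly6e on all 12 arrays, by genotype and treatment; each point is an array and each line joins the 2 arrays of a mouse. The null points of Cd52 (1502 to 2014) and Ly6d (327 to 884) lie below every control point, while those of Cd24a and Ly6e overlap with the controls.

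The other Ly6d probe set, 162216_i_at, was near the bottom of the scale. After αCD3 it read 33.8 and 26.1 in the MED23 null mice, 11.5 and 50.4 in the Lck-Cre mice, and 294 and 22.4 in the Med23flox/flox mice. On the mock arrays it read 53.5 and 50.4 in the MED23 null mice, 9.30 and 12.0 in the Lck-Cre mice, and 24.5 and 16.3 in the Med23flox/flox mice. It passed the filter on low signals, a mean of 100 or more in any of the 6 conditions, only through the single value of 294, which came from the array that stood apart. On the mock arrays it ran the other way, with both null mice above all 4 controls, and over the 12 arrays its correlation with 160553_at was r = 0.13, a description over arrays that share mice. The 2 probe sets of the gene therefore disagree, and the statements on Ly6d here rest on 160553_at.

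Thy1 was higher, not lower, in MED23 null cells after αCD3. Its probe set 99057_at read 10884 and 14085 in the MED23 null mice, 8493 and 9900 in the Lck-Cre mice, and 7914 and 7655 in the Med23flox/flox mice after αCD3. After mock treatment it read 11665 and 10907 in the MED23 null mice, 9495 and 9610 in the Lck-Cre mice, and 10694 and 11252 in the Med23flox/flox mice. The genotypes were separate after αCD3 and overlapped after mock treatment, where a Med23flox/flox mouse lay between the nulls. The null mean was 1.47 times the control mean after αCD3 and 1.10 times after mock treatment.

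The signals of Cd24a separated by treatment and not by genotype. After αCD3, 100600_at read 10676 and 11279 in the MED23 null mice, 11368 and 10982 in the Lck-Cre mice, and 10694 and 11286 in the Med23flox/flox mice. On the mock arrays it read 9453 and 7741 in the MED23 null mice, 7332 and 7506 in the Lck-Cre mice, and 7991 and 7498 in the Med23flox/flox mice. Every αCD3 array was above every mock array, and the genotypes overlapped under both treatments. How often this separation holds over all 12 arrays among all probe sets was not counted. Among the control arrays alone it held for 2.65% of probe sets.

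Ly6e, known in the mouse thymus as thymic shared antigen, had the narrowest range relative to its level. After αCD3, 101487_f_at read 30492 and 35025 in the MED23 null mice, 34774 and 29703 in the Lck-Cre mice, and 29762 and 30732 in the Med23flox/flox mice. After mock treatment it read 27998 and 30852 in the MED23 null mice, 28495 and 26667 in the Lck-Cre mice, and 31387 and 30657 in the Med23flox/flox mice. The genotypes overlapped under both treatments, and the null mean was 1.05 times the control mean after αCD3 and 1.00 times after mock treatment. The other Ly6e probe set, 101488_r_at, stayed between 44.0 and 202 on all arrays, and its genotypes overlapped as well. All 7 probe sets passed the filter.

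The next question was how far MED23 null cells differed from all 4 controls after αCD3, in a limma fit of log2(signal + 50) over 9478 probe sets with Benjamini-Hochberg adjustment. No probe set passed the threshold of 0.05 (0% of those tested), and none of the 7 antigen probe sets did, while 584 probe sets and 3 of the 7 were below 0.05 before adjustment. The log2 difference of Ly6d, MED23 null minus control, was -2.71 (SE 0.41, limma adjusted p = 0.394), the lowest value of all probe sets tested. That of Cd52 was -1.05 (SE 0.18, adjusted p = 0.493), the 52nd lowest. Thy1 differed by 0.55 (SE 0.20, adjusted p = 0.760), Ly6e by 0.07 (SE 0.17) and Cd24a by -0.01 (SE 0.16). Adding 50 makes low signals look more alike, so that the difference of Ly6d is understated on this scale. With a spread that is allowed to depend on the mean signal (a variance trend), 5 probe sets passed in all. Ly6d and Cd52 were among them, with limma adjusted p = 0.0120 for Ly6d and 0.0172 for Cd52. The mock arrays of the same mice chose these 2 genes, so their ranks and p-values here are not independent of that choice. A p-value above the threshold does not show that the genotypes were alike, and with 2 null mice it is the number of arrays that limits the precision.

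**Figure D2:**
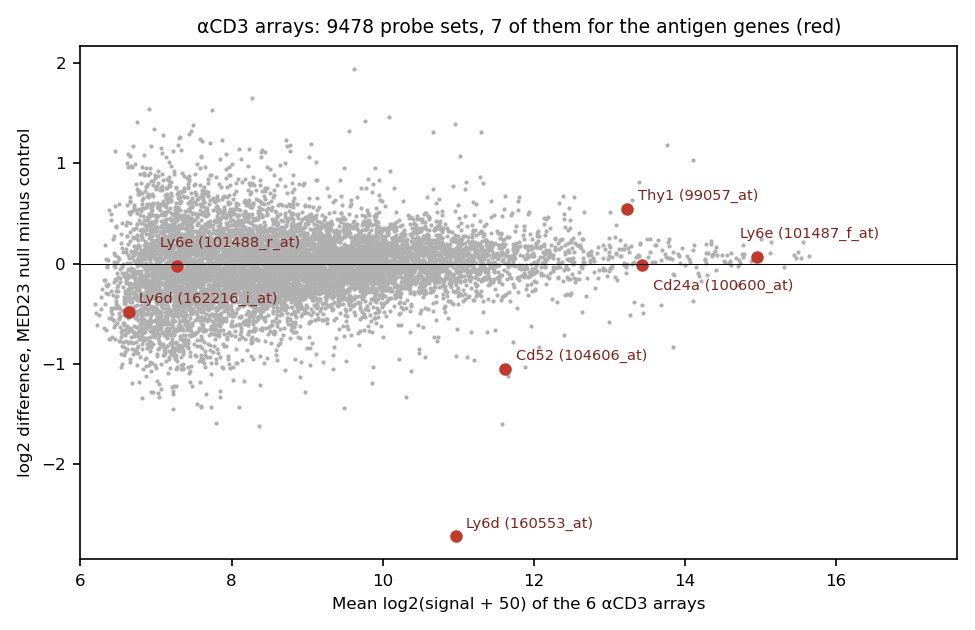
Log2 difference of MED23 null minus control (y axis) against mean log2(signal + 50) of the 6 αCD3 arrays (x axis) for all 9478 probe sets tested (grey), with the 7 antigen probe sets in red. Ly6d at -2.71 lies below every other probe set, Cd52 is at -1.05, Thy1 is at 0.55, and Cd24a and Ly6e are near 0.

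Separation of the genotypes was common among all probe sets. After αCD3, both null arrays were below all 4 control arrays for 8.61% of probe sets and above them for 6.9%. Cd52 and Ly6d (160553_at) were on the lower side and Thy1 was on the higher side. After mock treatment the shares were 8.44% below and 9.27% above, with Cd52 and Ly6d (160553_at) again below and the low-signal Ly6d probe set above. The 7 antigen probe sets are too few to be set apart from these shares, and their mock count is fixed in part by the choice of genes.

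The same was asked against each control genotype on its own. Against Lck-Cre cells after αCD3, Cd52 differed by -1.17 (SE 0.20, limma adjusted p = 0.612) and Ly6d by -2.56 (SE 0.49, adjusted p = 0.612). Against Med23flox/flox cells after αCD3, Cd52 differed by -0.92 (SE 0.20, adjusted p = 0.555) and Ly6d by -2.86 (SE 0.49, adjusted p = 0.455). Ly6d was the lowest of all probe sets in both comparisons, and 0% of probe sets passed in either by limma, with 458 below 0.05 before adjustment against Lck-Cre and 732 against Med23flox/flox. Thy1 differed by 0.43 (adjusted p = 0.999) from Lck-Cre and by 0.67 (adjusted p = 0.604) from Med23flox/flox in the same limma fit. In linear terms the null mean of Cd52 was 0.438 of the Lck-Cre mean and 0.522 of the Med23flox/flox mean, and that of Ly6d was 0.161 of the Lck-Cre mean and 0.129 of the Med23flox/flox mean.

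On the mock arrays, which chose the genes, Cd52 differed from all controls by -1.24 on the log2 scale (SE 0.16), from Lck-Cre by -1.31 and from Med23flox/flox by -1.17. Ly6d differed from all controls by -2.28 (SE 0.48), from Lck-Cre by -2.14 and from Med23flox/flox by -2.43. The remaining genes were close to 0, with 0.14 for Thy1, 0.17 for Cd24a and 0.01 for Ly6e against all controls. Over all probe sets, limma called 0% in each of these 3 mock comparisons, with 701, 692 and 696 below 0.05 before adjustment against all controls, Lck-Cre and Med23flox/flox in that order.

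The 2 control genotypes served as a yardstick. Lck-Cre minus Med23flox/flox was 0.25 for Cd52 (SE 0.20, limma adjusted p = 0.859) and -0.30 for Ly6d (SE 0.49, adjusted p = 0.942) after αCD3. After mock treatment it was 0.14 for Cd52 (SE 0.19, limma adjusted p = 0.976) and -0.29 for Ly6d (SE 0.59, adjusted p = 0.989). None of the 7 probe sets passed, and 0% of all did under either treatment, with 562 below 0.05 before adjustment after αCD3 and 535 after mock treatment. The sign for Ly6d depended on single mice, and without Med23flox/flox replicate 1 the difference was 0.16 after αCD3 and 0.33 after mock treatment, and without Lck-Cre replicate 2 it was 0.091 and 0.082. On the αCD3 arrays MED23 null differed more in size from each control genotype than these differed from each other, for both genes. This is a description only, since the same mice gave the mock arrays that chose the genes. On the mock arrays no such reading is made.

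**Figure D3:**
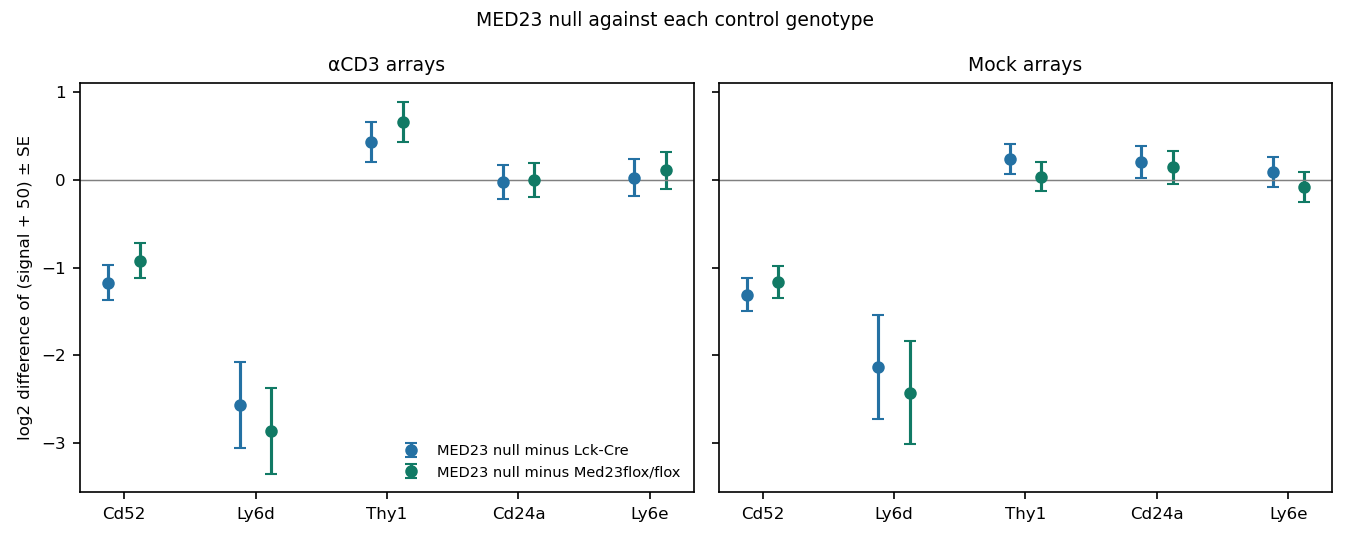
Log2 difference of (signal + 50), MED23 null minus Lck-Cre (blue) and MED23 null minus Med23flox/flox (green), for 5 genes on the αCD3 arrays (left) and the mock arrays (right), with bars of 1 SE from the limma fit. Both control genotypes give a negative value for Cd52 (-1.17 and -0.92 after αCD3) and for Ly6d (-2.56 and -2.86).

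Summed markers of thymocyte stages and of some other cells thus differed as well. In both treatments the mature single positive sum was lower in MED23 null cells, as was Cd52, an antigen of mature lymphocytes. Its part in the difference was not tested. Klf2 is among the markers in this sum. The study reports normal proportions of thymocyte populations in MED23 null mice. By qRT-PCR it reports lower Cd52 mRNA in mock-treated total MED23 null thymocytes. It also reports lower Klf2 and Cd52 mRNA in isolated MED23 null CD4 single positive thymocytes. The B cell sum was higher in MED23 null cells, opposite to Ly6d, the T lineage and NK sums differed as given above, and the erythroid sum was high in 1 of the 2 null mice, with their part in the differences not tested either. The 3' to 5' signal ratio of actin, a measure of RNA integrity, was 1.61 to 1.90 in MED23 null cells and 1.35 to 1.41 in control cells after αCD3, and 1.44 to 1.63 in MED23 null cells and 1.35 to 1.60 in control cells after mock treatment. Its part in the differences was not tested.

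The response to αCD3 was taken mouse by mouse, as αCD3 signal divided by mock signal. For Cd52 and Ly6d the mock signals chose the genes, so their ratios and the tests of them are not independent of that choice. For Cd24a the ratio was 1.13 and 1.46 in the MED23 null mice, 1.55 and 1.46 in the Lck-Cre mice, and 1.34 and 1.51 in the Med23flox/flox mice. All 6 mice were above 1, with means of 1.29 ± 0.232 in MED23 null (SD, n = 2) and 1.46 ± 0.0912 in control mice (SD, n = 4). The log2 response of the controls was 0.54 (SE 0.12, limma adjusted p = 0.238) and did not pass, and Cd24a was the 473rd highest of the 9478 probe sets. Among the controls, every αCD3 array was above every mock array for Cd24a, which held for 2.65% of all probe sets. In MED23 null mice its log2 response was 0.36 (SE 0.17, limma adjusted p = 0.993).

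For Ly6d (160553_at) the ratio was 0.861 and 1.07 in the MED23 null mice, 1.31 and 1.28 in the Lck-Cre mice, and 1.16 and 1.46 in the Med23flox/flox mice. The means were 0.966 ± 0.150 in MED23 null (SD, n = 2) and 1.31 ± 0.123 in control mice (SD, n = 4). The null ratios lay below the control ratios, but how often this holds among all probe sets was not counted. The log2 response was -0.06 (SE 0.17) in MED23 null and 0.37 (SE 0.12, limma adjusted p = 0.516) in control mice. The difference between these responses was -0.43 (SE 0.21, limma adjusted p = 0.971) and did not pass.

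For Cd52 the ratio was 1.34 and 1.07 in the MED23 null mice, 1.03 and 1.14 in the Lck-Cre mice, and 0.901 and 1.12 in the Med23flox/flox mice. Its log2 response was 0.25 in MED23 null and 0.06 in control mice (difference 0.19, SE 0.22). The gap between the genotypes before the antibody was the ground on which the gene was chosen. For Thy1 the ratio was 0.933 and 1.29 in the MED23 null mice, 0.894 and 1.03 in the Lck-Cre mice, and 0.740 and 0.680 in the Med23flox/flox mice. The 2 Med23flox/flox mice were the lowest, and the log2 response was 0.13 in MED23 null and -0.28 in control mice (difference 0.41, SE 0.26). For Ly6e (101487_f_at) the ratio was 1.09 and 1.14 in the MED23 null mice, 1.22 and 1.11 in the Lck-Cre mice, and 0.948 and 1.00 in the Med23flox/flox mice, which overlapped.

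**Figure D4:**
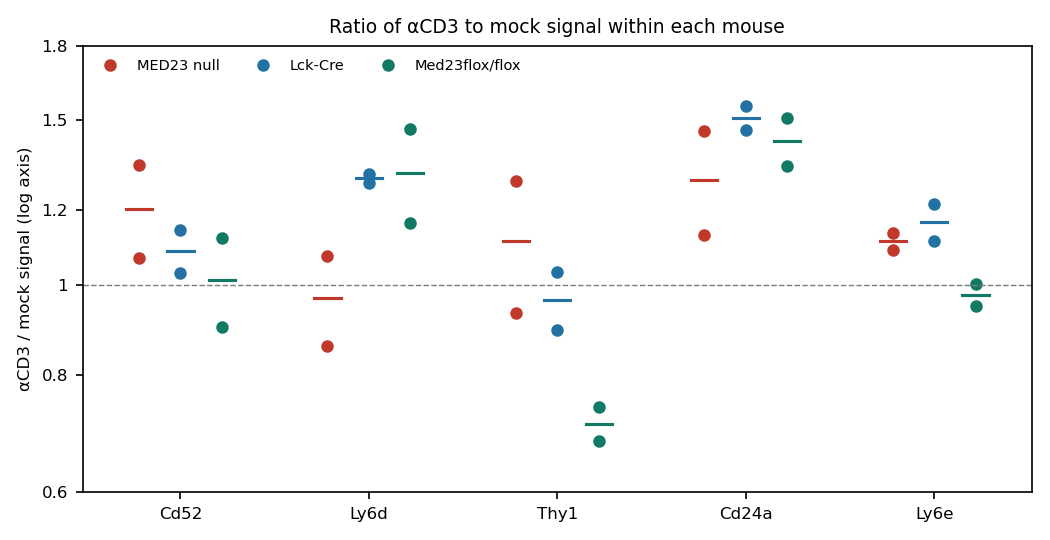
αCD3 signal divided by the mock signal of the same mouse (log axis) for 5 genes; each point is a mouse, bars are the mean of the 2 mice of a genotype, and the dashed line marks no response. All 6 mice lie above 1 for Cd24a, and for Ly6d the 2 null mice (0.861 and 1.07) lie below all 4 controls (1.16 to 1.46).

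None of the 7 probe sets passed in the response of control mice, where 14 of 9478 did (0.148%), or in that of MED23 null mice, where 3 did (0.0317%). In the difference of the responses 0% of probe sets passed by limma, with 486 below 0.05 before adjustment, none of which were antigen probe sets.

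Other genes of the same families were read beside the members. Of 22 other LY6/uPAR genes listed, 11 were on the array and 8 were tested. None passed in any of the 11 comparisons, and after αCD3 their median log2 difference, MED23 null minus control, was 0.01 (-0.68 to 0.88), against -0.01 over all probe sets. Ly6h, the highest of them, averaged 329 in MED23 null and 156 in control cells after αCD3 (log2 difference 0.88, limma adjusted p = 0.605). Plaur, the urokinase receptor, was the lowest, at 40.2 in MED23 null and 101 in control cells (-0.68). After mock treatment it averaged 47.7 in MED23 null and 49.2 in control cells. It thus passed the filter on low signals only through control αCD3 arrays, and its difference is not independent of that filter.

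Of 26 genes for GPI-anchored leukocyte proteins outside that family, 17 were on the array and 12 were tested, with none passing. Their median was -0.05 after αCD3 and -0.06 after mock treatment, against -0.01 and 0.01 over all probe sets. The lowest was Sema7a, a semaphorin, with 291 in MED23 null and 512 in control cells after αCD3 (log2 difference -0.74, limma adjusted p = 0.649), and 292 in MED23 null and 492 in control cells after mock treatment (-0.66). Gfra1, a co-receptor for glial cell line-derived neurotrophic factor, was highest after mock treatment, at 293 in MED23 null and 120 in control cells (1.00). In control mice Cd160, a receptor of cytotoxic lymphocytes, had the highest response of the list, with a mean of 186 after αCD3 and 54.7 after mock treatment (1.26 on the log2 scale, limma adjusted p = 0.293).

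Of 28 genes that build, transfer or remodel the GPI anchor, 14 were on the array and all 14 were tested, with none passing. Their median was -0.03 after αCD3 and 0.01 after mock treatment, close to the medians of all probe sets. Pigk, a subunit of the transamidase that joins the anchor to the protein, was the highest after αCD3, with 203 in MED23 null and 101 in control cells (log2 difference 0.82, limma adjusted p = 0.810).

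In the annotation of GRCm38.p6, used for gene order only, Ly6d and Ly6e lie on chromosome 15 with 7 protein-coding genes between them, 3 of which are named Ly6. None of the 5 genes on either side of Ly6d or Ly6e was tested, so that differences along this cluster were not read. Next to Cd52, on chromosome 4, Ubxn11 differed by 0.08 after αCD3 and 0.34 after mock treatment, and Sh3bgrl3 by -0.05 and 0.12, both MED23 null minus control on the log2 scale.

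The genes whose log2 signals followed Cd52 most closely over the 12 arrays of 6 mice were Nsmce1 (r = 0.94), Cry1 (0.93), Ahnak (0.92), Dbi (0.92) and Nedd4 (0.89). Nsmce1, a subunit of the SMC5/6 complex, averaged 837 in MED23 null and 1258 in control cells over both treatments, and Ahnak, a very large scaffold protein, averaged 49.1 in MED23 null and 228 in control cells. Ly6d was followed by Dcx (0.91), Rb1 (0.90), Slc30a4 (0.89), Map3k3 (0.89) and Dhrs3 (0.89). Slc30a4, a zinc transporter, averaged 538 in MED23 null and 1047 in control cells. Cd52 and Ly6d had r = 0.88 with each other, and Thy1 had r = -0.67 with Cd52 and -0.74 with Ly6d. Cd52 and Ly6d were chosen for lower mock signals in MED23 null cells, and the mock arrays are among the 12. Their correlation with each other and with other genes is therefore not independent of that choice. Ahnak and Dcx stayed under 100 on every null array, so they passed the filter on low signals only through control arrays. These correlations describe arrays that share mice and genotypes and carry no test.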

How the data were processed

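RNA of total thymocytes was measured on 12 Affymetrix MG_U74Av2 arrays. The deposited values are linear intensities, 1 MAS5 signal for every probe set, as made by the authors. The version of MAS5 is not given in the sources used here. The arrays were scaled to the mock array of Lck-Cre replicate 1 by a mean trimmed by 2% at each end, which moved no array by more than 0.00603%. The log2 of (signal + 50) was analysed. From the 12488 probe sets, 66 controls were removed, and 9478 of the others reached a mean of 100 in any of the 6 conditions and were tested. Arrays have no read depth, and their number limits the precision. No 2 arrays held identical values.

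R 4.3.3 with limma 3.58.1 (lmFit, eBayes) was used, with Benjamini-Hochberg adjustment over all probe sets tested, in 11 comparisons, and figures were drawn with Python 3.11.15 and matplotlib 3.10.9. Responses were fitted as 6 within-mouse differences. The sample titles give a genotype and a number, and samples that share both were taken as the same mouse. Arrays of the same mouse deviated together only weakly (r = 0.06 to 0.15 over probe sets). The fits left 4 residual degrees of freedom with 2 means and 3 with 3 means. Scripts were tested on simulated data. The alternatives were other pseudocounts, filters, scalings and control groups, a variance trend and fits without each mouse. Responses were also fitted without the pairing by mouse, and genotype differences with the replicate number as a block.

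Symbols come from the platform annotation, in which 10855 probe sets have 1 symbol, 396 several and 1237 none. All members were named, with up to 4 genes per list and comparison of the largest difference, each at its brightest probe set, and the 5 genes most like Cd52 and Ly6d. The members and lists were chosen with earlier results of these data known.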

Additional observations from a re-analysis of the deposited data

Results flagged for a closer look

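The αCD3 array of Med23flox/flox replicate 1 gave 294 for the Ly6d probe set 162216_i_at, apart from the other 3 control αCD3 arrays, of which the next highest read 50.4. The gap was 0.862 of the range of the 4 arrays. Chance alone sets apart about 1 in 20 such groups if values are normally distributed. The same check was made for every antigen probe set under both treatments and for the ratios, so a flag can arise by chance. For the same probe set, the ratio of αCD3 to mock signal was under 1 in both MED23 null mice (mean 0.575) and above 1 in all 4 control mice (mean 4.70; 2.72 in Lck-Cre and 6.68 in Med23flox/flox mice). Without Med23flox/flox replicate 1, a choice made after seeing the data, the control mean was 2.27, and the control mock signals that these ratios divide by were 9.30 to 24.5, near the bottom of the scale. The log2 difference in response was -1.12 and is given with no test. This probe set passed the filter only through the 294, a control value that enters that difference. How often ratios of all probe sets fall on opposite sides of 1 in this way was not counted. With 1 exception its signals were under 100 on every array, the exception being the 294.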

How the results depend on the processing

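For Cd52 the αCD3 difference of MED23 null from control ranged over -1.17 to -0.92 under the alternatives (limma adjusted p = 0.0172 to 0.878), and for Ly6d over -3.22 to -2.21 (0.0120 to 0.878). Both passed only with a variance trend, which called 5 probe sets in all, 2 of them antigen probe sets. The trend also called 2 probe sets on the mock arrays against all controls and 3 against Lck-Cre, and a minimum signal of 200 called 1 on the mock arrays against all controls.

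The 14 calls in the response of control mice became 27 with a pseudocount of 100, 33 with a minimum signal of 200 and 4 with a variance trend. They became 42 when the pairing by mouse was ignored and the 12 arrays were treated as independent. With Lck-Cre or Med23flox/flox mice as the only controls there were 0, and without a single control mouse 3 to 9. The 3 calls in MED23 null mice became 1 with a pseudocount of 16, no filter, quantile normalization or a variance trend. They became 0 without the pairing by mouse or with either control genotype alone, and 0 to 1 without a single control mouse. No antigen probe set passed in either response under any of these.

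In the sources used here, nothing but the number links replicates across genotypes (r of deviations -0.01 to 0.12). Ly6d (160553_at) was nevertheless higher in replicate 1 of every genotype under both treatments. With the replicate number as a block no antigen probe set passed after αCD3, and Ly6d had limma adjusted p = 0.101 and Cd52 0.583.

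Signs turned for the following differences, none of which passed or, on the mock arrays, was tested. With Med23flox/flox mice alone the control response of Ly6e was -0.037. Quantile normalization gave -0.10 for its difference in response (-0.068 with Lck-Cre alone), -0.053 for its αCD3 difference from all controls, from Lck-Cre and from Med23flox/flox, and -0.065 for Cd24a between the control genotypes after αCD3. A trim of 10% gave 0.011 for Cd24a against all controls and 0.045 against Med23flox/flox after αCD3. Without single mice, the null response was -0.20 to 0.088 for Ly6d and -0.10 to 0.37 for Thy1. The αCD3 difference from all controls, Lck-Cre and Med23flox/flox was -0.053 to 0.026, -0.065 to 0.014 and -0.041 to 0.038 for Cd24a, and from all controls and Lck-Cre -0.032 to 0.17 and -0.089 to 0.14 for Ly6e. Lck-Cre minus Med23flox/flox was -0.026 to 0.20 for Ly6e, -0.014 to 0.063 for Cd24a and -0.75 to 0.16 for Ly6d after αCD3, and -0.91 to 0.33 for Ly6d after mock treatment. On the mock arrays the difference of Ly6e from all controls (0.0073) was -0.0098 with a trim of 10%, -0.078 with Med23flox/flox alone and -0.063 to 0.077 without single mice, and from Med23flox/flox Thy1 was -0.0082 and Cd24a -6.04e-06 at the lowest, without MED23 null replicate 1. The cause was not tested. Where a fit left 1 null mouse, that mouse was assumed to vary like the others.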
